A study of Homo sapiens with 8 samples.

Results

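The 48 genes described here encode the machinery of late cell division, from entry into mitosis to the separation of the daughter cells. They were chosen by gene symbol, and all 48 were among the 14162 genes tested on 8 Affymetrix arrays. For each gene the probe set that named it alone and had the highest mean level over the arrays was used; the members had 93 such probe sets, and 25 of them had 1. The RNA came from cells labelled HEL, a human erythroleukaemia line driven by an activated JAK2 kinase, grown in serum-containing medium. The drug arm set 2 arrays of cells treated with 0.5 µM CEP701 (lestaurtinib, a JAK2 and FLT3 kinase inhibitor) for 16 h against 2 arrays of DMSO-treated cells of the same time. The shRNA arm set 2 arrays of cells expressing an shRNA against PRMT5 against 2 of scramble shRNA cells; PRMT5 is an arginine methyltransferase of histones and splicing proteins, and the knockdown cells were a stable line made with a single pLKO lentiviral shRNA. The stated purpose was to set the drug's profile beside that of the knockdown. Nothing in the labels says that replicates are separate cultures, so the p-values below measure the spread between these arrays, and 2 arrays a group limit their precision.

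A cell enters mitosis when cyclin B and CDK1 become active, and it leaves when the anaphase-promoting complex, a ubiquitin ligase, marks cyclin B and the separase inhibitor securin for destruction. In between, kinetochores attach chromosomes to spindle microtubules while the spindle checkpoint holds the ligase back. Most genes of this machinery are transcribed late in the cycle, under B-MYB and FOXM1 working with the MuvB complex, which reads a short promoter element called the cell cycle genes homology region (CHR). JAK2 signalling drives proliferation in HEL cells. In bulk RNA a smaller share of cells in G2 or mitosis and a lower RNA level per such cell cannot be told apart.

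The labels were checked first. PRMT5 gave signals of 1793.8 and 984 with scramble shRNA and 664 and 315 with PRMT5 shRNA, 35.2% of the scramble mean, with an adjusted p of 0.217 by limma and of 8.91e-05 with the replicate pairs of the shRNA arm as a block. GATA1 and TAL1, erythroid and megakaryocyte transcription factors, were present on all arrays, at 1072 to 2196 and 7336 to 8920. Of 16 erythroid and megakaryocyte markers, 10 had a usable probe set and 8 of these exceeded the median signal of all values on every array. Their levels still differed between the arms. PF4 was at 1054 to 1980 in the drug arm and 21810 to 45436 in the shRNA arm, and PPBP at 357 to 565 and 18387 to 47271. The list summed to 24991 to 27823 and 61393 to 120371. From DMSO to scramble the mean log2 level of 6 of the 10 was higher and of 4 lower. The arms stood apart in other markers too. The summed signal of 5 mature myeloid markers was 5347 to 9025 in the drug arm and 55971 to 89946 in the shRNA arm, with MPO at 4.1 to 63.5 and 10913 to 20593. The sum of 4 epithelial markers was 43 to 76 and 2663 to 5898, and that of 2 endothelial markers 554 to 899 and 6 to 64. Lymphocyte and fibroblast markers summed to at most 683 on any array. The 2 arms are therefore described separately, and each treatment is set against the control of its own arm.

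On the log2 scale, CEP701 left the median member 0.20 below DMSO, whereas the median of all genes was 0.10 above it. Below 0 were 32 of 48 members, and 5938 of all 14162 genes. With PRMT5 shRNA the median member was 0.30 above scramble against 0.00 over all genes. Above 0 were 46 of 48 members, and 7157 of all 14162 genes. Without 1 array at a time the members' median was 0.0762 (without PRMT5 shRNA replicate 1), 0.09 (without scramble replicate 2), 0.51 (without scramble replicate 1) and 0.53 (without PRMT5 shRNA replicate 2). By limma's test over all genes, with Benjamini-Hochberg adjusted p under 0.05, 2 members fell with CEP701 and none rose. These were PBK and UBE2S; of all genes tested 5.78% passed, 3.74% higher and 2.04% lower. With the drug arrays blocked by their number no member passed, and 1.36% of all genes were higher and 0.558% lower. No member passed with PRMT5 shRNA, where 0.148% of all genes did, 0.00706% higher and 0.141% lower; 4 members (CDC20, PBK, NUF2 and TPX2), or 8.33%, had an unadjusted p under 0.05, as did 6.69% of all genes. Where the pairs of the shRNA arm were blocked, CCNB1, CDC20 and PBK rose, as did 0.318% of all genes, and no member fell, as did 1.43%. The widest differences separated the control groups of the arms: 29 members were lower with scramble shRNA than with DMSO and passed the test, as did 20.3% of all genes, and the median member lay at -0.80 against 0.11 over all genes.

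**Figure D1:**
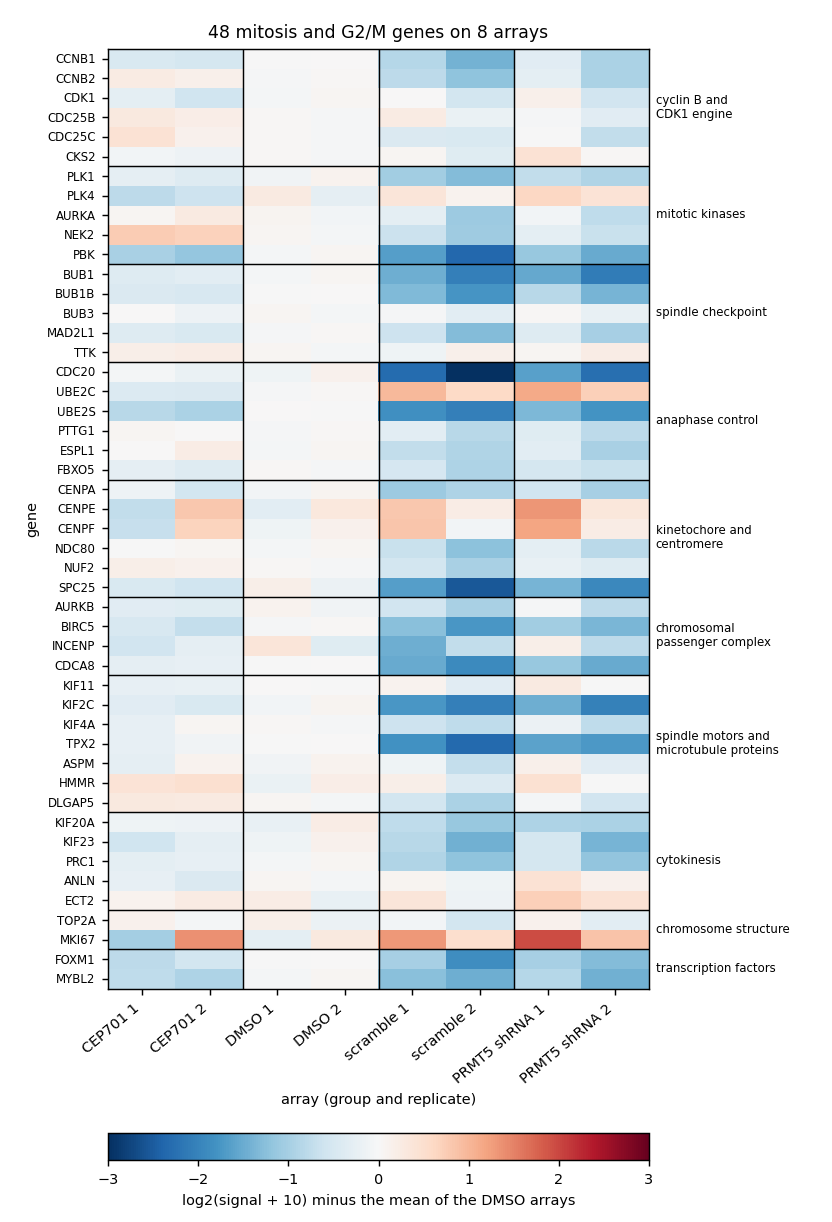
Each row is 1 of the 48 genes, grouped by role, and each column 1 of the 8 arrays; colour gives log2(signal + 10) minus the mean of the DMSO arrays. Blue fills most of the 4 shRNA-arm columns, with CDC20, SPC25 and TPX2 the darkest over the 4 together. In the CEP701 columns PBK, UBE2S, MYBL2, PLK4 and FOXM1 are among the genes lower on both arrays and NEK2 is higher on both, while MKI67, CENPE and CENPF are lower on the first and higher on the second.

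**Figure D2:**
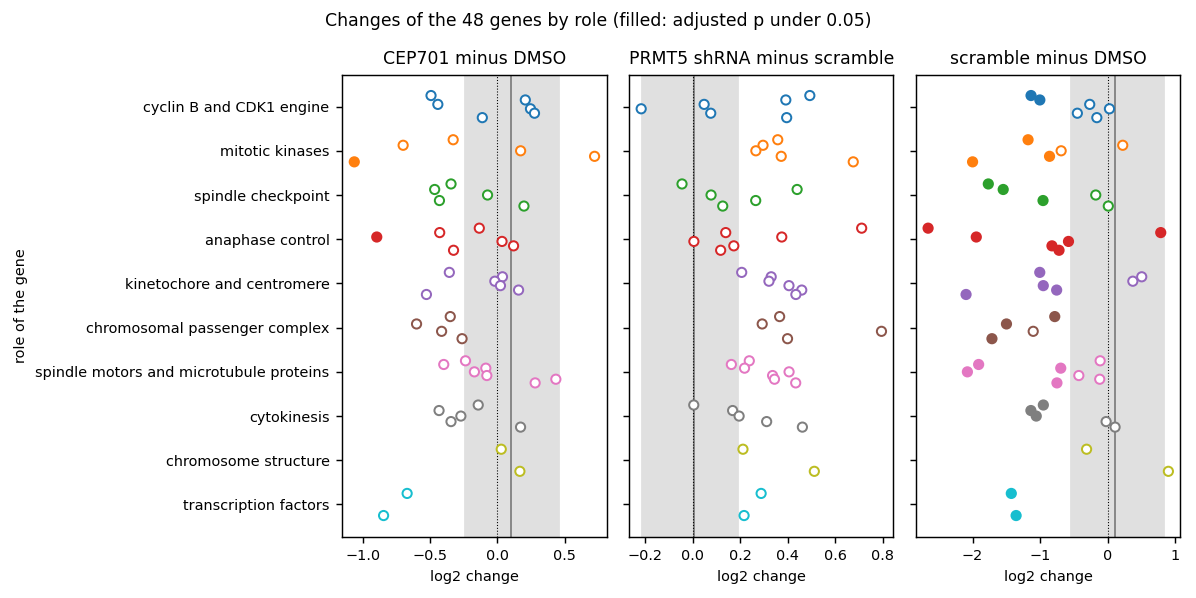
Each point is a gene placed by its log2 change in the comparison named above the panel, grouped by role on the vertical axis; filled points passed the test, the grey band spans the middle 50% of all 14162 genes and the grey line their median. With CEP701 2 points are filled, with PRMT5 shRNA none, and 46 of 48 points in that panel lie to the right of 0.

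The promoters of the members were compared with the regulatory elements named above. RefSeq promoter windows (GRCh38.p14; 250 bases before to 50 after each start) were found for 40 members, 53 windows in all; AURKA, BUB3, BIRC5, UBE2C, PBK, TTK, FOXM1 and TPX2 had none in the table. On either strand, TTTGAA, the CHR element, was present in the windows of 29 of 40 members (72.5%), against 14.4% of the tested genes with a window. CCAAT, the box bound by the factor NF-Y, was present in 33 (82.5%) against 42.7%. E2F sites, written TTCCCGC or TTGGCGC, were found for 17.5% of members and 16.8% of tested genes, and the SP1 box GGGCGG for 77.5% and 72.9%. Counted by window, 60.4% of member windows and 15.2% of all 35116 windows in the table held TTTGAA. The variant TTCGAA occurred in 3 members (7.5% against 2.32%). A match is a run of letters, not a measured site, and matches of different motifs can overlap.

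The 120 bases before the start are shown for 9 members, 5′ to 3′ along the gene's strand, with the CHR element TTTGAA and the box CCAAT, which reads as ATTGG when it lies on the opposite strand, in capitals. The first 5 have the CHR element between positions -29 and -22 from the start, PLK1, CCNB2 and CDCA8 beside CCAAT boxes, HMMR with 2 elements in tandem and BUB1B with no CCAAT box. They lie on the plus strand of chr15:59105026-59105145, chr16:23678769-23678888, chr15:40160949-40161068, chr1:37692396-37692515 and chr5:163460512-163460631. In CDCA8 the element runs into a reversed CCAAT box.
CCNB2: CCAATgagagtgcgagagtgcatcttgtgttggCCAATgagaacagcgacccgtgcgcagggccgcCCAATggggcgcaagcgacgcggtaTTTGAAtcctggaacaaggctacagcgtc
PLK1: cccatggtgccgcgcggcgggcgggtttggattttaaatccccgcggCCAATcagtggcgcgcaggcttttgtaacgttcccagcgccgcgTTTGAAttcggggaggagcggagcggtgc
BUB1B: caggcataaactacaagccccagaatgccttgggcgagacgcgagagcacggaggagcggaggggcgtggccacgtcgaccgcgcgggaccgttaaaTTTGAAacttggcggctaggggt
CDCA8: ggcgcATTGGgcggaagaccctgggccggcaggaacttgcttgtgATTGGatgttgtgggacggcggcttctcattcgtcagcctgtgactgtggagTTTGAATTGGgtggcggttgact
HMMR: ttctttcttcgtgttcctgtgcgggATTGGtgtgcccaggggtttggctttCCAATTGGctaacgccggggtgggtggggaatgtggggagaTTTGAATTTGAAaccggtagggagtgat
CDC20, the member furthest below DMSO on the scramble arrays, has the element further upstream, at position -65 (chr1:43358861-43358980, plus strand). CCNB1, which rose with PRMT5 shRNA in the blocked fit, has 2 CCAAT boxes and no TTTGAA (chr5:69167030-69167149, plus strand).
CDC20: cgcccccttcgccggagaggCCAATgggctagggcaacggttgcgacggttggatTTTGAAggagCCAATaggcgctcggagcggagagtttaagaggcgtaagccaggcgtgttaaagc
CCNB1: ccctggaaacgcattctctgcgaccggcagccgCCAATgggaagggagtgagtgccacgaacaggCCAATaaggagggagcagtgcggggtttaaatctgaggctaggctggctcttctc
UBE2S and MYBL2, with PBK the members furthest below DMSO after CEP701, hold neither motif in this stretch (chr19:55407789-55407908, minus strand, and chr20:43666994-43667113, plus strand).
UBE2S: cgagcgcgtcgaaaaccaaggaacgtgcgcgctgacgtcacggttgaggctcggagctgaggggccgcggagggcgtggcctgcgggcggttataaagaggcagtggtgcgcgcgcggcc
MYBL2: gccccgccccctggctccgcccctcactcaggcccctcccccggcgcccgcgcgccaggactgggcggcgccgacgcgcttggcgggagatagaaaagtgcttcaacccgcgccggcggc
The members with and without TTTGAA had median log2 changes of -0.13 (29 genes) and -0.34 (11 genes) with CEP701, and of 0.34 and 0.22 with PRMT5 shRNA. Between scramble and DMSO the medians were -0.75 and -0.95. The order turned for an element of either form within 60 bases before the start, a range chosen after the positions were seen: with it (21 genes) and without it (19 genes) the medians were -0.26 and -0.13 with CEP701, 0.31 and 0.33 with PRMT5 shRNA, and -0.82 and -0.78 between scramble and DMSO.

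**Figure D3:**
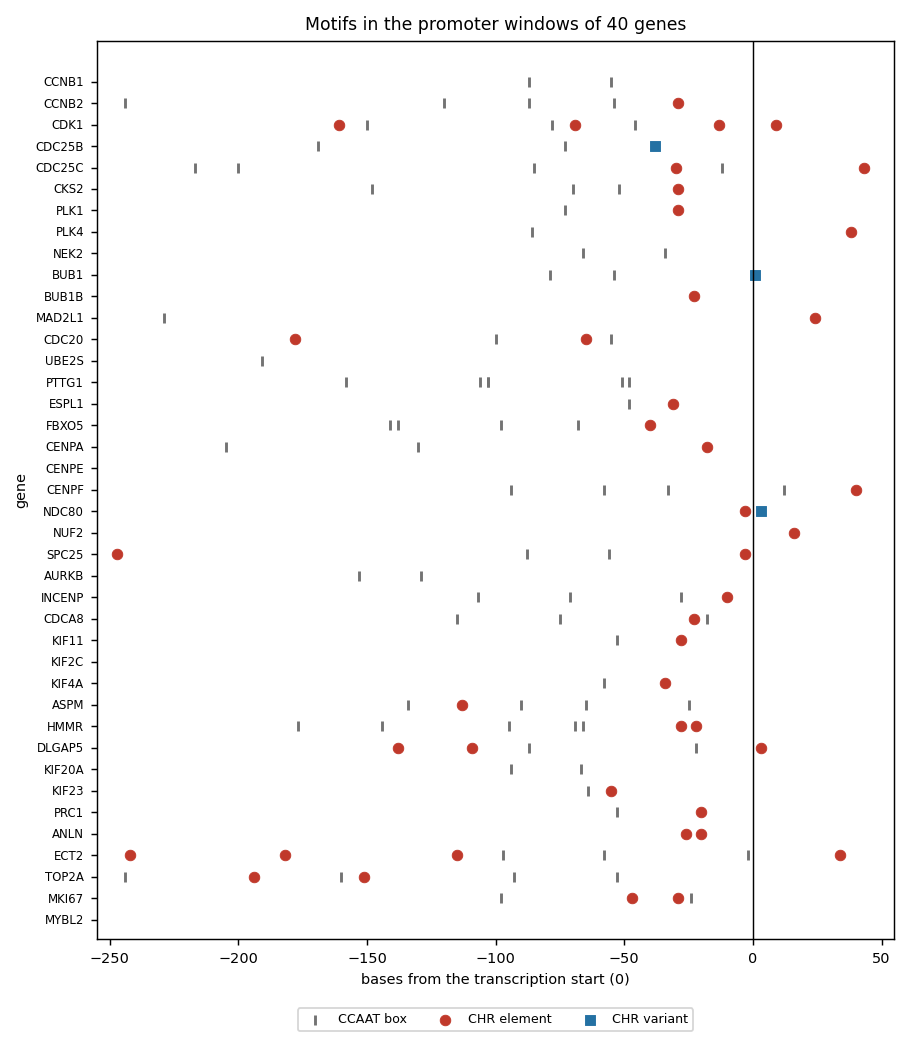
For each of 40 members, marks give the distance of CHR elements (TTTGAA, circles), their variant (TTCGAA, squares) and CCAAT boxes (bars) from the transcription start at 0; where a gene has several windows, all are drawn on its line. Circles gather just left of the start and most bars lie to their left. An element of either form lies within 60 bases before the start for 21 of 40 members, against 3.13% of tested genes. That range was chosen after these positions were seen.

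Among the genes of the cyclin B and CDK1 engine, none passed the test with CEP701 or, without the block, with PRMT5 shRNA. From DMSO to scramble 2 of 6 fell, as 20.3% of all genes did. CCNB1, the cyclin that carries CDK1 into mitosis, gave linear signals (MAS5 units, replicates 1 and 2 in order, as for all genes below) of 6767 and 6779.6 with DMSO, 4913 and 4713 with CEP701, 3761 and 2525 with scramble shRNA and 5379 and 3501 with PRMT5 shRNA. Both CEP701 arrays were below both DMSO arrays, at -0.49 on the log2 scale, and scramble was lower than DMSO by 2.19-fold, a change of -1.13 (SE 0.23, adjusted p = 0.0031). The PRMT5 shRNA array of each pair was above its scramble array, by 0.51 in one pair and 0.47 in the other; with the block CCNB1 rose by 0.49 (SE 0.09, adjusted p = 0.0278).

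CCNB2, the Golgi-associated cyclin B, gave 7971 and 8409 with DMSO, 9758 and 9174 with CEP701, 4730.0 and 3518 with scramble shRNA and 6734 and 4257 with PRMT5 shRNA. It lay above DMSO on both CEP701 arrays, at 0.21 (adjusted p = 0.6), opposite to CCNB1 and also without passing. With PRMT5 shRNA it lay at 0.39. From DMSO to scramble it fell by 2-fold (adjusted p = 0.00451). Its 2 other probe sets were of low signal, at 7 to 71.3 and 28.8 to 56.7. They both lay at -0.32 with CEP701, at -0.34 and 0.11 with PRMT5 shRNA, and at -0.21 and -0.16 between scramble and DMSO. CDK1, the kinase itself, gave 12728 and 13994 with DMSO, 10875 and 8873 with CEP701, 13488 and 9153 with scramble shRNA and 14822 and 8902 with PRMT5 shRNA. Its CEP701 arrays were the lower ones in the drug arm, at -0.44 (adjusted p = 0.321), and its shRNA arrays overlapped in both comparisons. Its 3 other probe sets lay further from 0, at -0.92, -0.89 and -0.91 with CEP701, 0.44, 0.53 and 0.67 with PRMT5 shRNA, and -0.70, -0.85 and -0.86 between scramble and DMSO. On the mean of its probe sets CDK1 fell with CEP701, at -0.79 (adjusted p = 0.0411), and from DMSO to scramble, at -0.67 (adjusted p = 0.0102).

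The CDC25 phosphatases switch CDK1 on, and neither passed with a treatment. CDC25B, which acts early in G2, gave 1656 and 1599 with DMSO, 1991 and 1877 with CEP701, 1946 and 1415 with scramble shRNA and 1578 and 1289.6 with PRMT5 shRNA. It was the member furthest below scramble with PRMT5 shRNA, at -0.22 (adjusted p = 0.9), and was lower in both pairs. CDC25C gave 463 and 438 with DMSO, 608 and 494 with CEP701, 329 and 327 with scramble shRNA and 448 and 267 with PRMT5 shRNA, and neither treatment moved it past the test (0.28 and 0.08). CKS2, a small CDK-binding subunit, gave 13676 and 13047 with DMSO, 12654 and 12084 with CEP701, 13819.9 and 10356 with scramble shRNA and 18099.6 and 13680.4 with PRMT5 shRNA, and its PRMT5 shRNA array was the higher one in each pair, with an adjusted p of 0.0533 in the blocked fit.

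The mitotic kinases included both the lowest and the highest log2 change of the 48 with CEP701, those of PBK and NEK2. PBK (also called TOPK), a mitotic MAP kinase kinase-like enzyme, gave 4673 and 5076 with DMSO, 2494 and 2169 with CEP701, 1549.7 and 945 with scramble shRNA and 2192 and 1715 with PRMT5 shRNA. Its CEP701 arrays averaged 2331.4 ± 230.3 (SD, n = 2) and its DMSO arrays 4875 ± 284 (SD, n = 2), with no overlap. PBK fell by 2.09-fold with CEP701, a log2 change of -1.06 (SE 0.23, adjusted p = 0.0343). With PRMT5 shRNA both arrays were above both scramble arrays, at 0.68 (SE 0.23, adjusted p = 0.586), and with the block PBK rose by 0.68 (SE 0.13, adjusted p = 0.0264).

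NEK2, a kinase that separates the centrosomes, gave 2437 and 2238 with DMSO, 3970.4 and 3756 with CEP701, 1483 and 1109 with scramble shRNA and 1890.3 and 1463 with PRMT5 shRNA. Both CEP701 arrays were above both DMSO arrays by 1.65-fold, at 0.72 (SE 0.19, adjusted p = 0.0558), which missed the threshold. NEK2 was lower with scramble shRNA than with DMSO, at -0.86 (adjusted p = 0.00473). PLK4, which starts centriole duplication, gave 1083 and 734 with DMSO, 514 and 578 with CEP701, 1144 and 953 with scramble shRNA and 1383 and 1191 with PRMT5 shRNA, and with CEP701 it lay at -0.70 (adjusted p = 0.0915) with a 95% interval of -1.19 to -0.21. Its PRMT5 shRNA arrays were both above its scramble arrays.

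PLK1, the kinase that triggers mitotic entry and cytokinesis, gave 601 and 699.6 with DMSO, 533 and 497 with CEP701, 309 and 256 with scramble shRNA and 382 and 345 with PRMT5 shRNA. The 4 groups did not overlap: DMSO was highest, then CEP701, then PRMT5 shRNA, then scramble. Only the difference between scramble and DMSO passed the test, at -1.18 (adjusted p = 0.00141). AURKA, which builds the spindle poles, gave 3440.4 and 3083 with DMSO, 3415 and 3954 with CEP701, 2670.4 and 1525 with scramble shRNA and 3100.1 and 1902 with PRMT5 shRNA; its CEP701 and DMSO arrays overlapped, as did its shRNA arrays.

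The spindle checkpoint genes BUB1, BUB1B and MAD2L1 had lower signals on both CEP701 arrays than on both DMSO arrays, without passing the test, and fell from DMSO to scramble. BUB1, a checkpoint kinase, gave 8289 and 8859.5 with DMSO, 6604 and 6901 with CEP701, 3084 and 2045 with scramble shRNA and 2967 and 1998 with PRMT5 shRNA. With CEP701 it lay at -0.34 (adjusted p = 0.393), and between scramble and DMSO it fell by 3.4-fold (adjusted p = 0.00023). It was 1 of 2 members below 0 with PRMT5 shRNA, at -0.04 with a 95% interval of -0.56 to 0.47.

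BUB1B, the BUBR1 subunit of the inhibitor that binds CDC20, gave 5746 and 5759.7 with DMSO, 4231 and 4098 with CEP701, 2298 and 1678 with scramble shRNA and 3231 and 2199 with PRMT5 shRNA. With CEP701 it lay at -0.47 (adjusted p = 0.21), with both arrays below both DMSO arrays. MAD2L1, the MAD2 protein, gave 12348 and 12876 with DMSO, 9584 and 9137 with CEP701, 8250.4 and 5113 with scramble shRNA and 9570.4 and 6368 with PRMT5 shRNA, and lay at -0.43 (adjusted p = 0.308) with CEP701. Both were higher on the PRMT5 shRNA array of each pair, BUB1B by 0.49 in one pair and 0.39 in the other. With CEP701 the other probe sets of MAD2L1 lay at -0.94 and -0.41. On their chosen probe sets the other checkpoint members did not pass in any comparison. BUB3, a WD-repeat partner of BUB1, gave 8786 and 8105 with DMSO, 8507 and 7573 with CEP701, 8235 and 6783 with scramble shRNA and 8657 and 7182 with PRMT5 shRNA. The strongest of its other probe sets lay at -0.41 with CEP701 and -0.81 between scramble and DMSO, without overlap in either. Those next in signal lay at -0.08 and -0.06 with CEP701 and at -0.32 and -0.21 between scramble and DMSO. TTK, the MPS1 kinase at the top of the checkpoint, gave 2546 and 2354 with DMSO, 2785 and 2836 with CEP701, 2245 and 2711 with scramble shRNA and 2541 and 2854 with PRMT5 shRNA, and was the member with the smallest difference between scramble and DMSO, 0.01.

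Of the genes that control anaphase, UBE2S fell with CEP701. From DMSO to scramble 5 of 6 fell and 1 rose, as 20.3% and 25.5% of all genes did. CDC20, the activator of the anaphase-promoting complex, gave 8505 and 10039.8 with DMSO, 8868 and 7999 with CEP701, 1869 and 1132 with scramble shRNA and 2961 and 1925 with PRMT5 shRNA. CEP701 and DMSO arrays overlapped (-0.13, 95% interval -0.72 to 0.45), whereas the scramble arrays were far below DMSO. Between the control groups CDC20 fell by 6.31-fold, a log2 change of -2.66 (SE 0.26, adjusted p = 4.34e-05), the widest of the 48. Both PRMT5 shRNA arrays exceeded both scramble arrays, at 0.71 (SE 0.26, adjusted p = 0.648); with the block CDC20 rose by 0.71 (SE 0.11, adjusted p = 0.0103).

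UBE2S and UBE2C, the enzymes that extend and start ubiquitin chains on the complex, differed in the direction of scramble from DMSO. UBE2S gave 14570.5 and 14463 with DMSO, 8088 and 7516 with CEP701, 4069.9 and 3480.5 with scramble shRNA and 5716 and 4169.5 with PRMT5 shRNA. Its DMSO arrays averaged 14517 ± 76.2 (SD, n = 2) and its CEP701 arrays 7802 ± 404.7 (SD, n = 2). UBE2S fell by 1.86-fold with CEP701, a log2 change of -0.90 (SE 0.17, adjusted p = 0.0213), and with PRMT5 shRNA it lay at 0.37 (SE 0.17, adjusted p = 0.743), both arrays above both scramble arrays. UBE2C gave 2635 and 2792 with DMSO, 2026 and 2001 with CEP701, 5367 and 4098 with scramble shRNA and 5992 and 4452 with PRMT5 shRNA. It was lower on both CEP701 arrays, at -0.43 (adjusted p = 0.194), and was the 1 member that rose from DMSO to scramble, at 0.79 (SE 0.18, adjusted p = 0.00663), as 25.5% of all genes did; the adjusted p was 0.0901 after scaling arrays to a common median, 0.321 after scaling to the spiked poly-A controls and 0.0514 without DMSO replicate 1.

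PTTG1, the securin that restrains separase, gave 14063 and 14938 with DMSO, 15051 and 14659 with CEP701, 11607 and 8108 with scramble shRNA and 11329 and 8363 with PRMT5 shRNA, with overlap in both treatment comparisons. ESPL1, separase itself, gave 1869 and 2054 with DMSO, 1976 and 2301 with CEP701, 1174 and 1036 with scramble shRNA and 1568 and 987 with PRMT5 shRNA. FBXO5 (EMI1), an inhibitor of the anaphase-promoting complex, gave 4302 and 4047 with DMSO, 3484 and 3180.2 with CEP701, 2925 and 2191 with scramble shRNA and 2888 and 2613 with PRMT5 shRNA. All 3 fell between DMSO and scramble, with adjusted p-values of 0.0349, 0.0128 and 0.00631, and none passed with either treatment.

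**Figure D4:**
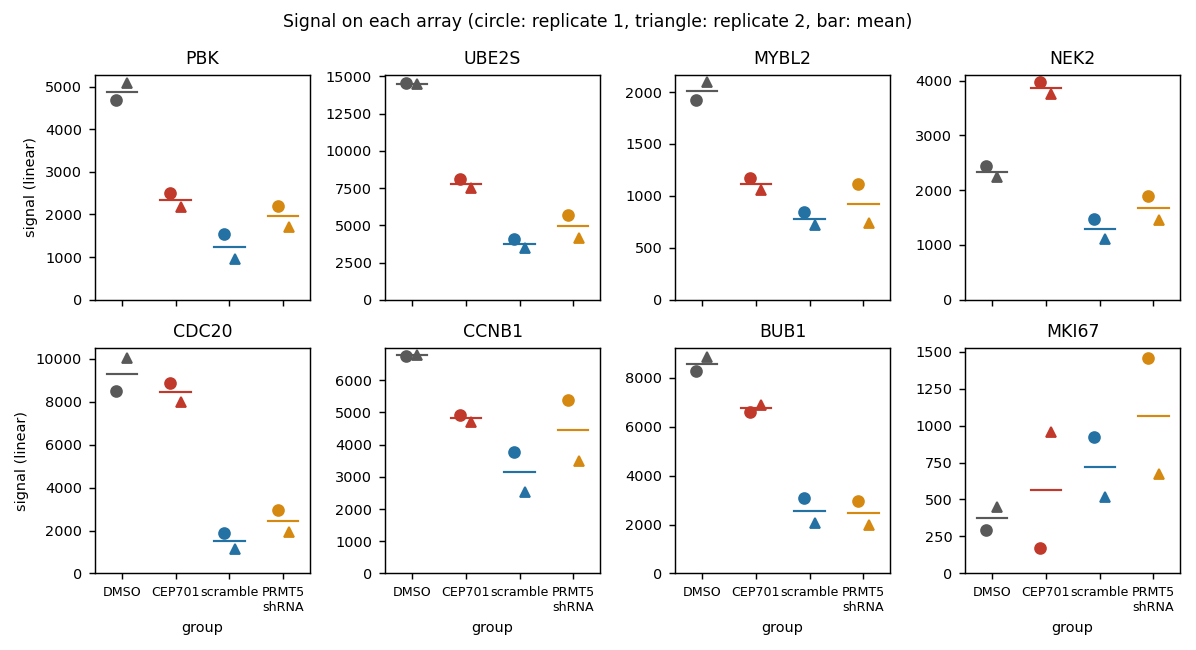
Linear signal on each of the 8 arrays for 8 members, with replicate 1 as a circle, replicate 2 as a triangle and a bar at the group mean; every vertical axis starts at 0. PBK, UBE2S and MYBL2 are highest with DMSO, NEK2 is highest with CEP701, and MKI67 is at 174 on one CEP701 array and 956 on the other.

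No kinetochore gene passed with either treatment, and 4 of 6 fell from DMSO to scramble, as 20.3% of all genes did. The replicates of CENPE and CENPF spread widely. CENPA, the centromeric histone, gave 1068 and 1209 with DMSO, 1018 and 770.3 with CEP701, 528 and 597 with scramble shRNA and 742 and 568 with PRMT5 shRNA. CENPE, a kinetochore motor, gave 424 and 670.3 with DMSO, 315 and 948 with CEP701, 934 and 620.4 with scramble shRNA and 1358 and 678 with PRMT5 shRNA. CENPF, a large kinetochore and nuclear matrix protein, gave 1451 and 1726 with DMSO, 974 and 2502 with CEP701, 2839.9 and 1485 with scramble shRNA and 3589 and 1836 with PRMT5 shRNA. On the first CEP701 array CENPE and CENPF were the lowest of all 8 arrays, and on the second they were above both DMSO arrays, so their CEP701 changes of 0.04 (SE 0.50) and -0.02 (SE 0.46) carry the largest errors after MKI67.

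MKI67, the Ki-67 protein that coats mitotic chromosomes, gave 296 and 450.2 with DMSO, 174 and 956 with CEP701, 919.6 and 518 with scramble shRNA and 1458 and 669.9 with PRMT5 shRNA. On its 3 other probe sets the first CEP701 array was also the lower one, with 111, 259 and 162 on the first CEP701 array and 438, 855 and 578 on the second. The actin 5′ to 3′ signal ratio, a measure of RNA and label length, was 0.116 and 0.161 on these arrays and 0.199 and 0.198 with DMSO; its part in the MKI67, CENPE and CENPF values was not tested. TOP2A, the topoisomerase that untangles sister chromatids, gave 9518 and 7490.3 with DMSO, 9168 and 8103 with CEP701, 7984 and 5801 with scramble shRNA and 9234 and 6726 with PRMT5 shRNA. These values, of the chosen probe set, overlapped in every comparison. Another TOP2A probe set, at 4600 to 8373, lay at -0.36 with CEP701 and -0.67 between scramble and DMSO, without overlap in either. With PRMT5 shRNA it lay at 0.29, with overlap.

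The NDC80 complex links kinetochores to microtubules. NDC80 gave 3273 and 3509.5 with DMSO, 3363 and 3530.0 with CEP701, 2115 and 1443 with scramble shRNA and 2759 and 1944 with PRMT5 shRNA. NUF2 gave 2528 and 2403 with DMSO, 2804 and 2701 with CEP701, 1689 and 1257 with scramble shRNA and 2128 and 1892 with PRMT5 shRNA. SPC25 gave 6608 and 5166 with DMSO, 4247 and 3868 with CEP701, 1864 and 989.9 with scramble shRNA and 2229 and 1517 with PRMT5 shRNA. With CEP701 the subunits split, NDC80 and NUF2 at 0.02 and 0.16 and SPC25 at -0.53 (adjusted p = 0.304). All 3 fell from DMSO to scramble, SPC25 by 4.28-fold, and all 3 were higher with PRMT5 shRNA in both pairs, with NUF2 at 0.46 (adjusted p = 0.656) and both its arrays above both scramble arrays. CENPA fell too between the control groups, by 2.01-fold (adjusted p = 0.00395).

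Every member of the chromosomal passenger complex, which corrects faulty attachments and later guides cleavage, had a mean below DMSO with CEP701 and above scramble with PRMT5 shRNA, and none passed. AURKB, its kinase, gave 1797 and 1574 with DMSO, 1325 and 1312 with CEP701, 1121 and 846 with scramble shRNA and 1629.7 and 970.1 with PRMT5 shRNA. BIRC5, survivin, gave 5305 and 5488 with DMSO, 3844 and 3289.7 with CEP701, 2257 and 1607 with scramble shRNA and 2619 and 2081 with PRMT5 shRNA, and with CEP701 it lay at -0.60 (SE 0.19, adjusted p = 0.0982). CDCA8, borealin, gave 2757 and 2788 with DMSO, 2292 and 2329.8 with CEP701, 964 and 729.9 with scramble shRNA and 1266 and 972 with PRMT5 shRNA. These 3 fell between DMSO and scramble, by 1.72-fold, 2.82-fold and 3.28-fold.

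INCENP, the scaffold of the complex, gave 229 and 134 with DMSO, 116 and 145 with CEP701, 56.8 and 102 with scramble shRNA and 199.9 and 97.2 with PRMT5 shRNA. It had the highest mean difference with PRMT5 shRNA, 0.79 (SE 0.45, adjusted p = 0.812), but the pairs differed, with 1.65 in one pair and -0.06 in the other. One scramble array was below the filter level of 59.98, the median of all values.

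Of 7 spindle motors and microtubule proteins none passed with either treatment, and 4 fell from DMSO to scramble, as 20.3% of all genes did. KIF11, the motor that pushes the poles apart, gave 3128 and 3044 with DMSO, 2591 and 2645 with CEP701, 3341 and 2446 with scramble shRNA and 3711 and 3066 with PRMT5 shRNA. KIF2C, a microtubule-shortening kinesin, gave 7024 and 7849 with DMSO, 5883 and 5394 with CEP701, 2189 and 1771 with scramble shRNA and 2688 and 1808 with PRMT5 shRNA. TPX2, which seeds spindle microtubules and activates Aurora A, gave 6869.8 and 6969.8 with DMSO, 5860.0 and 6452 with CEP701, 1953 and 1365 with scramble shRNA and 2263 and 2073 with PRMT5 shRNA. Scramble was lower than DMSO by 3.76-fold for KIF2C (adjusted p = 6.66e-05) and 4.22-fold for TPX2 (adjusted p = 1.95e-05), whereas KIF11 overlapped, at -0.11.

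KIF4A, a chromosome-bound kinesin, gave 1737 and 1666 with DMSO, 1441 and 1783 with CEP701, 1108 and 992 with scramble shRNA and 1494 and 997 with PRMT5 shRNA. ASPM, a spindle pole protein, gave 4682 and 5455 with DMSO, 4223 and 5430.2 with CEP701, 4623 and 3058 with scramble shRNA and 5629 and 4006 with PRMT5 shRNA. Neither passed with either treatment; KIF4A fell between the control groups (adjusted p = 0.0237). For ASPM the probe set mattered. With CEP701 both of its other probe sets were above DMSO without overlap, at 0.89 and 0.72, where the chosen one lay at -0.08. Both were also higher with scramble than with DMSO. With probe sets of the _s_at and _x_at types left out, ASPM lay at 0.74 between scramble and DMSO (adjusted p = 0.0426). HMMR, a spindle-assembly protein, gave 4805 and 6406 with DMSO, 7334 and 7683 with CEP701, 6266 and 4181 with scramble shRNA and 7668 and 5509 with PRMT5 shRNA, with both CEP701 arrays above both DMSO arrays at 0.44 (adjusted p = 0.286). DLGAP5 (HURP), which stabilises kinetochore fibres, gave 3500.2 and 3259.9 with DMSO, 4166 and 4051 with CEP701, 2311 and 1739 with scramble shRNA and 3243 and 2264 with PRMT5 shRNA, and was also higher on both CEP701 arrays, at 0.28 (adjusted p = 0.427); it fell from DMSO to scramble (adjusted p = 0.0128).

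With NEK2, CDC25B, CDC25C, CCNB2, TTK and NUF2, HMMR and DLGAP5 make up the 8 members whose CEP701 arrays were both above the DMSO arrays, where 36.3% of all genes were. In the other direction 25 of 48 had both CEP701 arrays below both DMSO arrays, against 25.7% of all genes.

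Of the cytokinesis genes, none passed with either treatment and 3 of 5 fell from DMSO to scramble, as 20.3% of all genes did. KIF20A, a midzone kinesin, gave 1972 and 2659.9 with DMSO, 2079 and 2072 with CEP701, 1338 and 1040.2 with scramble shRNA and 1194 and 1173 with PRMT5 shRNA, and its change with PRMT5 shRNA was the nearest to 0 of the 48, 0.00. KIF23, the motor of centralspindlin, gave 1058 and 1249 with DMSO, 756 and 954 with CEP701, 644 and 416 with scramble shRNA and 793 and 428 with PRMT5 shRNA. PRC1, which bundles midzone microtubules, gave 4929.5 and 5346 with DMSO, 4159 and 4351 with CEP701, 2742 and 2213 with scramble shRNA and 3542 and 2247 with PRMT5 shRNA. These are the 3 that fell, by 1.93-fold, 2.2-fold and 2.08-fold; for KIF23 a second probe set of low signal gave 0.30 (adjusted p = 0.635).

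ANLN, which scaffolds the contractile ring, gave 2130.4 and 1933 with DMSO, 1709 and 1492 with CEP701, 2144 and 1864 with scramble shRNA and 2759 and 2233 with PRMT5 shRNA. ECT2, the exchange factor that activates RHOA at the cleavage site, gave 1424 and 1048 with DMSO, 1318 and 1442 with CEP701, 1587 and 1099 with scramble shRNA and 2014 and 1647 with PRMT5 shRNA. For both genes the PRMT5 shRNA arrays exceeded both scramble arrays, at 0.31 (adjusted p = 0.805) and 0.46 (adjusted p = 0.775), and neither differed between scramble and DMSO past the test.

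The transcription factors of the programme were among the lowest members with CEP701 relative to DMSO. MYBL2 (B-MYB) gave 1923 and 2100.1 with DMSO, 1174 and 1058 with CEP701, 842 and 722 with scramble shRNA and 1113 and 739 with PRMT5 shRNA. It was 1.8-fold lower with CEP701, at -0.85 (SE 0.21, adjusted p = 0.0503), just short of the threshold. FOXM1, the forkhead factor of late G2 genes, gave 1493 and 1521 with DMSO, 868 and 1024 with CEP701, 751 and 408 with scramble shRNA and 755 and 610.5 with PRMT5 shRNA, and lay at -0.67 (SE 0.27, adjusted p = 0.168). Both fell from DMSO to scramble, at -1.35 and -1.43, and neither passed with PRMT5 shRNA.

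The CEP701 result turned on the estimate of spread. In the fit of 8 arrays, the 4 groups share it; fitted on the 4 drug-arm arrays alone, 17 members passed, 15 lower and 2 higher (NEK2 and HMMR), as did 22.7% of all genes. The 15 included PBK, UBE2S, MYBL2, FOXM1, BIRC5, CCNB1, BUB1B and MAD2L1. Leaving out any 1 of the 4 drug-arm arrays left 0 members called, and 0.0424% to 0.353% of all genes, with PBK at -0.96 to -1.16 and UBE2S at -0.84 to -0.95. In the 8-array fit the 95% interval of the CEP701 change lay within 2-fold in either direction for 33 of 48 members. It excluded 0 for 8 (16.7%), and 24.0% of all genes had an unadjusted p under 0.05.

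Related genes gave context for the CEP701 change, from lists drawn up for this purpose. Of 59 other mitosis and G2/M genes measured, 45 lay below 0, as did 5938 of all 14162 genes, and the median was -0.36. In this list 2 (3.39%) fell, against 2.04% of all genes. These were MELK, a mitotic kinase, at -1.02 (SE 0.23, adjusted p = 0.0365) and TUBB4B, a beta-tubulin, at -0.89 (SE 0.22, adjusted p = 0.0477). Of 49 DNA replication and G1/S genes, 47 lay below 0, with a median of -0.63. In this list 9 (18.4%) fell, against 2.04% of all genes, among them CHAF1A at -1.10, RRM2 at -0.76 and POLA2 at -1.20. Genes of the G2 gate divided: CHEK2, a DNA damage kinase, fell at -0.98 (adjusted p = 0.023), ATM, the kinase above it, rose at 0.88 (adjusted p = 0.0476), and the other 14 did not pass. Of all genes 5.78% passed, 3.74% higher and 2.04% lower. The summed signal of the mature myeloid markers was 7701 to 9025 with CEP701 and 5347 to 5350 with DMSO, nearly all of it LYZ (8863 and 7656 against 5293 and 5252), with CD14, MPO, ELANE and S100A8 between 2.1 and 63.5; its part in these values was not tested.

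The PRMT5 shRNA result depended on whether the pairs of arrays were blocked. The arrays of a pair share a suffix in their titles, and their deviations from the group means correlated across 14162 genes (r = 0.32, over 2 pairs). With PRMT5 shRNA, 38 members were higher in both pairs, as were 30.1% of all genes, and 2 were lower in both (CDC25B and BUB1), as were 29.4%. Both PRMT5 shRNA arrays were above both scramble arrays for 10 members (PBK, CDC20, NUF2, TPX2, UBE2S, PLK1, PLK4, CDCA8, ANLN and ECT2), against 14.1% of all genes, and below for none, against 16.1%. The 95% interval lay within 2-fold in either direction for 40 of 48 members. The median over members was 0.33 in one pair and 0.29 in the other.

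The replicates themselves differed in these genes. In the scramble group 45 of 48 members were higher on replicate 1 than on replicate 2, with a median difference of 0.44, and in the PRMT5 shRNA group 47 of 48, with a median of 0.48; over all genes the shares were 49.7% and 47.6%. In the CEP701 and DMSO groups the counts were 28 and 20 of 48, against 49.9% and 46.5%. Within the shRNA arm the difference between replicates was thus larger for the median member than the difference between PRMT5 shRNA and scramble. Marker lists differed between the replicates too, with members in both directions. Of 10 erythroid and megakaryocyte markers, 7 were higher on replicate 2 in both groups and 1, KLF1, on replicate 1, and the list summed to 72536 and 61393 on the replicate 1 arrays of scramble and PRMT5 shRNA and to 120371 and 93598 on the replicate 2 arrays. Of 4 epithelial markers, EPCAM and CDH1 were higher on replicate 1 in both groups and KRT19 on replicate 2, with sums of 5723 and 5898 against 4167 and 2663. All 5 mature myeloid markers were higher on replicate 2 in both groups. The actin 5′ to 3′ ratio was 0.141 and 0.187 on replicate 1 and 0.179 and 0.335 on replicate 2. The part of these in the members' values was not tested.

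**Figure D5:**
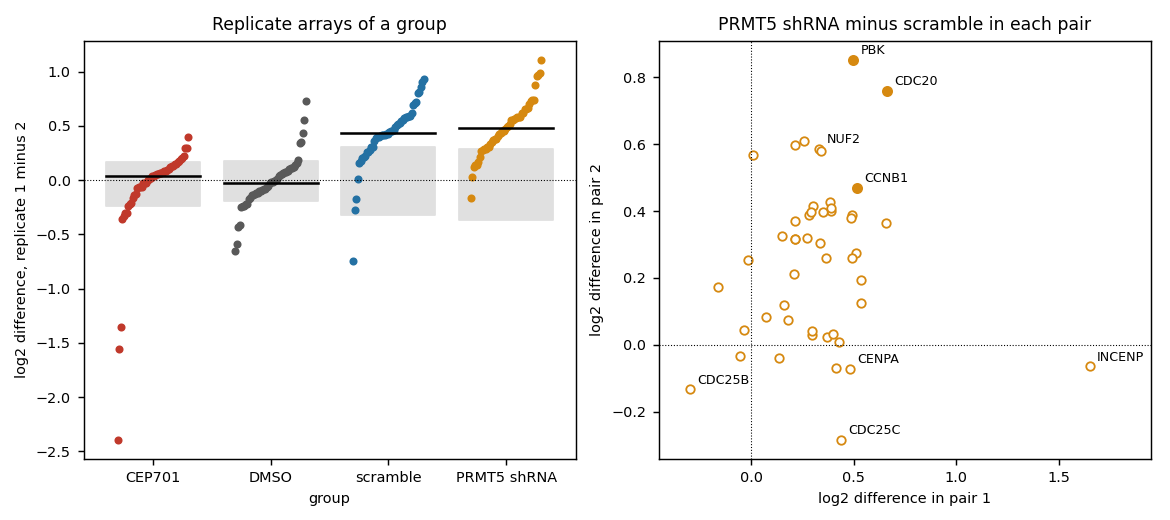
Left, the log2 difference between replicate 1 and replicate 2 for each of the 48 genes in each group, with a bar at the members' median and a grey band over the middle 50% of all genes; right, PRMT5 shRNA minus scramble in one pair against the other, with filled points passing the test with the replicate block. The members sit above 0 in both shRNA-arm groups (medians 0.44 and 0.48), and 38 points lie above 0 in both pairs.

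With PRMT5 shRNA no gene of the related lists passed: 0 of 59 other mitosis and G2/M genes were called by limma. In this list 2 (3.39%) had an unadjusted p under 0.05, against 6.69% of all genes. Of the 59, 54 lay above 0, as did 7157 of all 14162 genes, and the median was 0.25. Of 49 DNA replication and G1/S genes, 40 lay above 0 with a median of 0.16, and none was called. The erythroid and megakaryocyte markers had a median of -0.35 over 10 genes in this comparison, and the mature myeloid markers summed to 77410 and 89827 with scramble and 55971 and 89946 with PRMT5 shRNA.

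The scramble and DMSO arrays also serve in the treatment comparisons, so the values below are not independent of those. Between the control groups, 30 of 48 members passed, and 45.8% of all genes did. Scramble differs from DMSO by the arm as well as by the treatment, and the marker differences given above accompany this comparison, so the shRNA, the vehicle and the arm cannot be told apart. Both scramble arrays were below both DMSO arrays for 33 members (33.2% of all genes) and above for 2, UBE2C and MKI67 (40.8% of all genes), and 19 members were over 2-fold lower. Those lower by the most were CDC20, SPC25, TPX2, PBK, UBE2S and KIF2C. Beside them, 34 of 59 other mitosis and G2/M genes fell and 1, LMNB1, rose, where 20.3% of all genes fell and 25.5% rose. DEPDC1, KNSTRN and SKA1 fell, with log2 changes of -1.88, -1.54 and -1.81. Of 49 DNA replication and G1/S genes, 26 fell and 1 rose, against the same shares of all genes. Of 16 genes of the G2 gate, 5 rose and 5 fell, with a median of -0.07, beside 25.5% and 20.3% of all genes. CDKN1A, the p21 inhibitor of CDKs, rose at 4.18 (SE 0.20, adjusted p = 7.72e-07), and CCNG2 rose at 3.48 (SE 0.43, adjusted p = 0.000176). CDC25A, the phosphatase that opens S phase and mitosis, fell at -3.15 (SE 0.40, adjusted p = 0.00022).

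The difference between the CEP701 change and the PRMT5 shRNA change was tested directly. PBK differed at -1.74 (SE 0.33, adjusted p = 0.0392) and UBE2S at -1.27 (SE 0.24, adjusted p = 0.0377), both lower with CEP701 relative to DMSO and higher with PRMT5 shRNA relative to scramble, and 2 of 48 members were thus called; of all genes 1.43% were, 1.11% higher and 0.325% lower. The median member lay at -0.47 against 0.11 over all genes, and 42 of 48 lay below 0, as did 6112 of all 14162 genes. INCENP at -1.21 (adjusted p = 0.322), MYBL2 at -1.06 (adjusted p = 0.109) and CCNB1 at -0.98 (adjusted p = 0.148) did not pass; CDC25B, the member highest in this test, lay at 0.46. With the pairs of the shRNA arm blocked, 19 members were called, all lower, as against 17.3% of all genes in either direction. This test contains all 4 groups, so it is not independent of the comparisons above.

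How the arrays were scaled moved all genes together. After scaling to a common median, the all-gene median went from 0.10 to -0.06 with CEP701 and from 0.11 to -0.24 between scramble and DMSO, and turned the split of all calls with CEP701 from 530 higher and 289 lower to 315 and 559. Relative to the median of all genes, the median member lay at -0.30 with CEP701, 0.30 with PRMT5 shRNA and -0.92 between scramble and DMSO, and after quantile normalization at -0.19, 0.32 and -0.77.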

How the data were processed

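RNA from 8 samples, 2 per group, was hybridised to Affymetrix arrays of 54675 probe sets; per the labels' protocols, 200 ng of total RNA were labelled with a 3′ IVT kit. The deposited values are linear signal intensity, which the authors computed with MAS5 (Affymetrix Expression Console), per the submitters' processing notes (version not given in the sources used here). Each array's mean, without the lowest and highest 2% of values, is 500. The platform annotation had 41097 probe sets with 1 gene, 1801 with several and 11777 with none; only the first were used.

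Here 10 was added to each signal and log2 taken; probe sets exceeding 59.98 (the overall median) on 2 or more arrays were kept, and each gene took its probe set of highest mean. All 48 members passed this filter. The 14162 genes were fitted in 1 model of 4 groups with limma 3.58.1 (trend; 4 residual and 5.37 prior degrees of freedom; R 4.3.3), with Benjamini-Hochberg adjustment over all genes and a threshold of 0.05. SDs are of linear signals. The calculation was tested on simulated data. The replicate block pairs shRNA arrays by the suffix in their titles (correlation of deviations 0.32); the drug arrays share only a number (-0.01). Other scalings, filters, pseudocounts, probe set choices and left-out arrays were tried.

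Members, lists, motifs and naming rule were all chosen with earlier results of these data known. By that rule values on all arrays were given for representatives of each role, the 3 largest rises and falls of each comparison and all members that passed; the few others were added.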

Additional observations from a re-analysis of the deposited data

Results flagged for a closer look

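For PBK and UBE2S the effects of the 2 treatments differed by the test of the difference itself. The log2 change of PBK with CEP701 (-1.06) minus that with PRMT5 shRNA (0.68) was -1.74 (SE 0.33, adjusted p = 0.0392 by limma), and that of UBE2S (-0.90 minus 0.37) was -1.27 (SE 0.24, adjusted p = 0.0377). For both genes the 2 CEP701 arrays lay below the 2 DMSO arrays and the 2 PRMT5 shRNA arrays above the 2 scramble arrays. Over the alternatives tried the adjusted p of PBK ranged from 0.000206 to 0.199 and that of UBE2S from 0.000303 to 0.196, and the sign was negative in all of them. PBK passed in 9 of 20 alternatives and UBE2S in 8 of 19. The arms these effects come from differ in many marker genes, whose part was not tested. Both genes have 1 usable probe set.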

How the results depend on the processing

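The direction of the median over members was the same under every alternative tried. With CEP701, where 2 members passed, the count was 1 after quantile normalization and 1 without _x_at and _s_at probe sets (33 members), 4 after median scaling, 17 with only the 4 arrays compared, 0 without a variance trend, and 5 after poly-A control scaling, an alternative chosen after seeing the data, which also moved the median to -0.70. Between scramble and DMSO the median was -1.15 after median scaling and -1.20 after poly-A scaling. For the difference of the effects (2 passed), the count was 0 with no filter on low signals, 1 after quantile normalization, 0 with the mean of a gene's probe sets, 1 without _x_at and _s_at probe sets, 0 without a trend and 1 after poly-A scaling, with a median of -0.9997. Without _x_at and _s_at probe sets the sign of 2 members turned between scramble and DMSO, ASPM to 0.74 and KIF23 to 0.30.

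The replicate block in the shRNA arm gave 16 members with CEP701 (22.3% of all genes), 3 with PRMT5 shRNA (1.74%), 19 for the difference (17.3%) and 33 between the control groups (55.1%), where the fit without it gave 30. With the replicate block in the drug arm, where the numbers did not pair the arrays, the counts were 0 with CEP701 (1.91% of all genes), 0 for the difference (0.155%) and 29 between the control groups (42.2%).

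Leaving out 1 array at a time gave counts of 0 to 4 with CEP701, 0 with PRMT5 shRNA, 23 to 32 between scramble and DMSO and 0 to 6 for the difference. The lone array left was assumed to vary like the other groups. The median with PRMT5 shRNA ranged from 0.0762 (without PRMT5 shRNA replicate 1) to 0.53 (without its replicate 2), and was 0.09 without scramble replicate 2 and 0.51 without scramble replicate 1. For the difference it ranged from -0.19 to -0.76. With 2 arrays a group, intervals for single genes stay wide, and INCENP is near the background.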

Other observations

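Protein complexes that work beside the 48 genes were measured with CEP701, where 5.78% of all genes passed. Of 20 condensin and cohesin genes, which compact chromosomes and hold sister chromatids together, none passed, the median was -0.08, and 5 had an unadjusted p under 0.05, as did 24.0% of all genes. Of 14 genes listed for the anaphase-promoting complex, which are its subunits and FZR1, 1 passed. This was ANAPC16, which rose by 0.62 (SE 0.15, adjusted p = 0.0466), and the median was 0.04. The 3 members that work on this complex as activator or ubiquitin carriers, CDC20, UBE2C and UBE2S, lay at -0.13, -0.43 and -0.90. Of 12 genes listed for MuvB and DREAM, which are subunits and the kinase DYRK1A, 1 passed. This was TFDP1, the partner of E2F factors, which fell at -0.99 (SE 0.20, adjusted p = 0.0282), and the median was -0.01. With PRMT5 shRNA no gene of these 3 lists passed, and the medians were 0.15, 0.05 and -0.00.

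Between scramble and DMSO, where 20.3% of all genes fell and 25.5% rose, 8 of the 20 condensin and cohesin genes fell and 1 rose. Taken in either direction, their share was about that of all genes, 45.8%. NCAPD3 at -1.27 and CDCA5 at -1.08 led the falls. The gene that rose was WAPL, the cohesin release factor, at 0.55. Of the 12 genes in the MuvB and DREAM list, 6 fell and 2 rose. The latter were the pocket proteins RBL2 at 1.604 and RBL1 at 0.71.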
